A study of Mus musculus with 24 samples.

Results

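The genes described here are 9 cathepsins, Ctsa, Ctsb, Ctsc, Ctsd, Ctsh, Ctsk, Ctsl, Ctss and Ctsz, and Cstb, which encodes the cytosolic inhibitor cystatin B. They were taken by gene symbol from the 2 deposited count tables, joined by Ensembl gene ID, and are 10 of the 49022 genes that both tables hold. Transcripts were counted by bulk sequencing of polyadenylated RNA in 24 libraries of sorted mouse lung macrophages, 3 libraries in each of 8 groups. Cells that were CD11b+ SiglecF- are called interstitial macrophages (IMs) and cells that were CD11b- SiglecF+ alveolar macrophages (AMs). Bleomycin, which damages lung tissue and leads to scarring in mice, was given into the trachea at 3 µg per g, and PBS was the control. Wild-type C57BL/6J mice gave IMs at day 7 after PBS and at day 7 after bleomycin. Mice with an Spp1-EGFP knock-in reporter, in which EGFP marks cells that use the Spp1 gene, gave the other 6 groups. Of these, 3 were IMs after bleomycin: the EGFP- and the EGFP+ cells of day 7 and the EGFP+ cells of day 14. The other 3 were EGFP+ AMs, from day 7 after PBS and from days 14 and 30 after bleomycin. Ages are not given in the labels, and nothing in them says whether the 3 libraries of a group came from separate mice, so that p-values measure the spread between these libraries, which may be technical.

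Cathepsins are proteases that work mainly in the acidic lysosome, where they break down proteins taken up from outside or delivered from within the cell. Most are made as inactive proenzymes, tagged with mannose 6-phosphate, carried to the lysosome by receptors and cleaved there to the active form. Cystatins block the papain-like cysteine cathepsins, cystatin B in the cytosol and cystatin C outside the cell. Macrophages are among the richest sources of these enzymes, and some are also secreted and cut collagen and elastin.

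Depth was 13450053 to 24580620 counts per library, and the lowest count of any of the 10 genes in any library was 170. All 10 passed the filter on low counts in every comparison. Levels below are counts per 1000000 counts of the library (CPM), with mean ± SD over 3 libraries, and the fold changes and their SE are those of the fit, which scales libraries by TMM factors. Siglecf had a mean of 7.42 to 25.1 CPM in the 5 IM groups and 122 to 415 CPM in the 3 AM groups, and Itgam, which encodes CD11b, ranged from 218 to 379 CPM by IM group and, among AM groups, from 7.32 to 26.1 CPM. Spp1 was lowest in wild-type IMs after PBS, at 91.3 ± 2.78 CPM, and was 202 ± 9.47 CPM in the EGFP+ AMs after PBS, below the 518 ± 59.5 CPM of the EGFP- IMs. The 5 day 7 groups are in one deposited table, and the day 14 and day 30 groups are in the other. The library EGFP+ IM day 14 replicate 1 stood apart from the other 2 of its group (mean chi-square per gene of 68.1 and 131 against them, and 3.03 to 26.7 within all other pairs of replicates). The fold changes of the 10 genes that use it are given with and without it, and those of other genes only with it.

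The aspartic protease gene Ctsd (ENSMUSG00000007891) lies on GRCm38 chromosome 7, 142375911 to 142388038, minus strand, and the serine carboxypeptidase gene Ctsa (ENSMUSG00000017760) on chromosome 2, 164832873 to 164841032, plus strand. Ctsa overlaps Pltp on the opposite strand, whose level was 13.1% to 36.2% of that of Ctsa. The strand setting of the counting is not given in the sources used here, so reads of those genes may not be fully separated. Of the cysteine endopeptidase genes, Ctss (ENSMUSG00000038642; chromosome 3, 95526786 to 95556403, plus) and Ctsk (ENSMUSG00000028111; chromosome 3, 95499256 to 95509362, plus) are neighbours. Ctsb (ENSMUSG00000021939) lies on chromosome 14, 63122462 to 63145919 in one table and to 63145923 in the other, plus strand. Ctsl (ENSMUSG00000021477) is on chromosome 13, minus strand, and its model differs most: 64363214 to 64370306 in the first table and 64359337 to 64370890 in the second. A level of Ctsl set across the tables therefore also carries a change of gene model. The exopeptidase genes are Ctsc (ENSMUSG00000030560; chromosome 7, 88278085 to 88310888, plus), Ctsh (ENSMUSG00000032359; chromosome 9, 90054152 to 90076089, plus) and Ctsz (ENSMUSG00000016256; chromosome 2, 174427493 to 174439039, minus). Cstb (ENSMUSG00000005054) lies on chromosome 10, plus strand, 78425670 to 78427619 in the first table and 78425669 to 78427622 in the second.

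Lysosomal genes are known to share a promoter element bound by TFEB and its relatives, with the palindromic core CACGTG and, in its fuller form, TCACGTGA. RefSeq promoter windows on GRCm38.p6 were matched for 7 of the 10 genes, not for Ctsb, Ctsh and Cstb. Both strands were searched, and CACGTG lies within every TCACGTGA. Of 32851 promoter windows of the same length, 7.15% hold CACGTG and 0.974% hold TCACGTGA. Matches were found in Ctsd, at -99 from the start site for the longer form and at -245 for the core alone, in a second window of Ctsa, at -13 and +5, and in Ctsl, at -236 for the core alone. The 3 windows with a match are shown from 250 bases before to 20 bases after the start site, 5′ to 3′ along the strand of the gene, with the matched letters in capitals. They lie at chr7:142387808-142388077 on the minus strand for Ctsd, chr2:164833523-164833792 on the plus strand for Ctsa and chr13:64370501-64370770 on the minus strand for Ctsl.
Ctsd: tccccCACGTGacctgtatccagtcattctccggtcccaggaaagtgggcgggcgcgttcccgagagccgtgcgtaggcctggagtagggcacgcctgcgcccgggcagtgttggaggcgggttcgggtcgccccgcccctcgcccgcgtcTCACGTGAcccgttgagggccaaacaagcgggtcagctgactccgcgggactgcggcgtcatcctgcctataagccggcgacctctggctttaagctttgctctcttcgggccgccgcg
Ctsa: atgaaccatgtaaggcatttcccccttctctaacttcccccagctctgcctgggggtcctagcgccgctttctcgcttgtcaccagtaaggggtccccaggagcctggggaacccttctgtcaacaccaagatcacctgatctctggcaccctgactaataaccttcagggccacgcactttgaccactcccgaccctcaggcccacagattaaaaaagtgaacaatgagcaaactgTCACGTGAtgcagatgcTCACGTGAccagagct
Ctsl: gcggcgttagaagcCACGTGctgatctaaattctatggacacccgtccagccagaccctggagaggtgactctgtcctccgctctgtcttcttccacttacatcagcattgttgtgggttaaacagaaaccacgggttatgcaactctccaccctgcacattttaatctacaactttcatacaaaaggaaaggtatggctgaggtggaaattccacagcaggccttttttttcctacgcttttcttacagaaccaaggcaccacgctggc
The Ctsd window holds a core match and a full match far apart, the Ctsa window holds 2 full matches close to the start site, and the Ctsl window holds a core match at its far end. GAGGAAG, the core bound by the myeloid factor PU.1, was found in Ctsk, Ctss and Ctsc and in 13.628% of all windows, and TGANTCA, the AP-1 site, in none of the members' windows and in 7.808% of all. A match describes the letters only and shows no binding.

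Every one of the 10 genes was lowest either in an uninjured group or in the EGFP- IMs, and highest in a group taken at day 14 or day 30 after bleomycin. These later groups are all in the second table and the day 7 groups in the first, so table and day cannot be told apart here. The place of Ctsl also carries its change of gene model. Wild-type IMs after PBS held the lowest level of 8 genes, EGFP- IMs that of Ctsa and EGFP+ AMs after PBS that of Ctsb. EGFP+ IMs at day 14 held the highest mean of Ctsb, Ctsl, Ctss, Ctsh, Ctsz and Cstb, EGFP+ AMs at day 30 that of Ctsd, Ctsa and Ctsk, and EGFP+ AMs at day 14 that of Ctsc. Several of these top places are shared within the spread: at the top of the order the day 14 IMs overlapped the day 14 AMs for Ctss and Ctsh and the day 30 AMs for Ctsz, and the day 30 AMs overlapped the day 14 IMs for Ctsa and the day 14 AMs for Ctsk. Per kb of principal transcript Ctss was the most abundant of the 9 genes ranked in all 8 groups, from 895 CPM per kb in wild-type IMs after PBS to 6621 CPM per kb in EGFP+ IMs at day 14, and this held with the union of all exons as the length. Ctsl is not ranked per length, because its model differs between the tables.

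**Figure D1:**
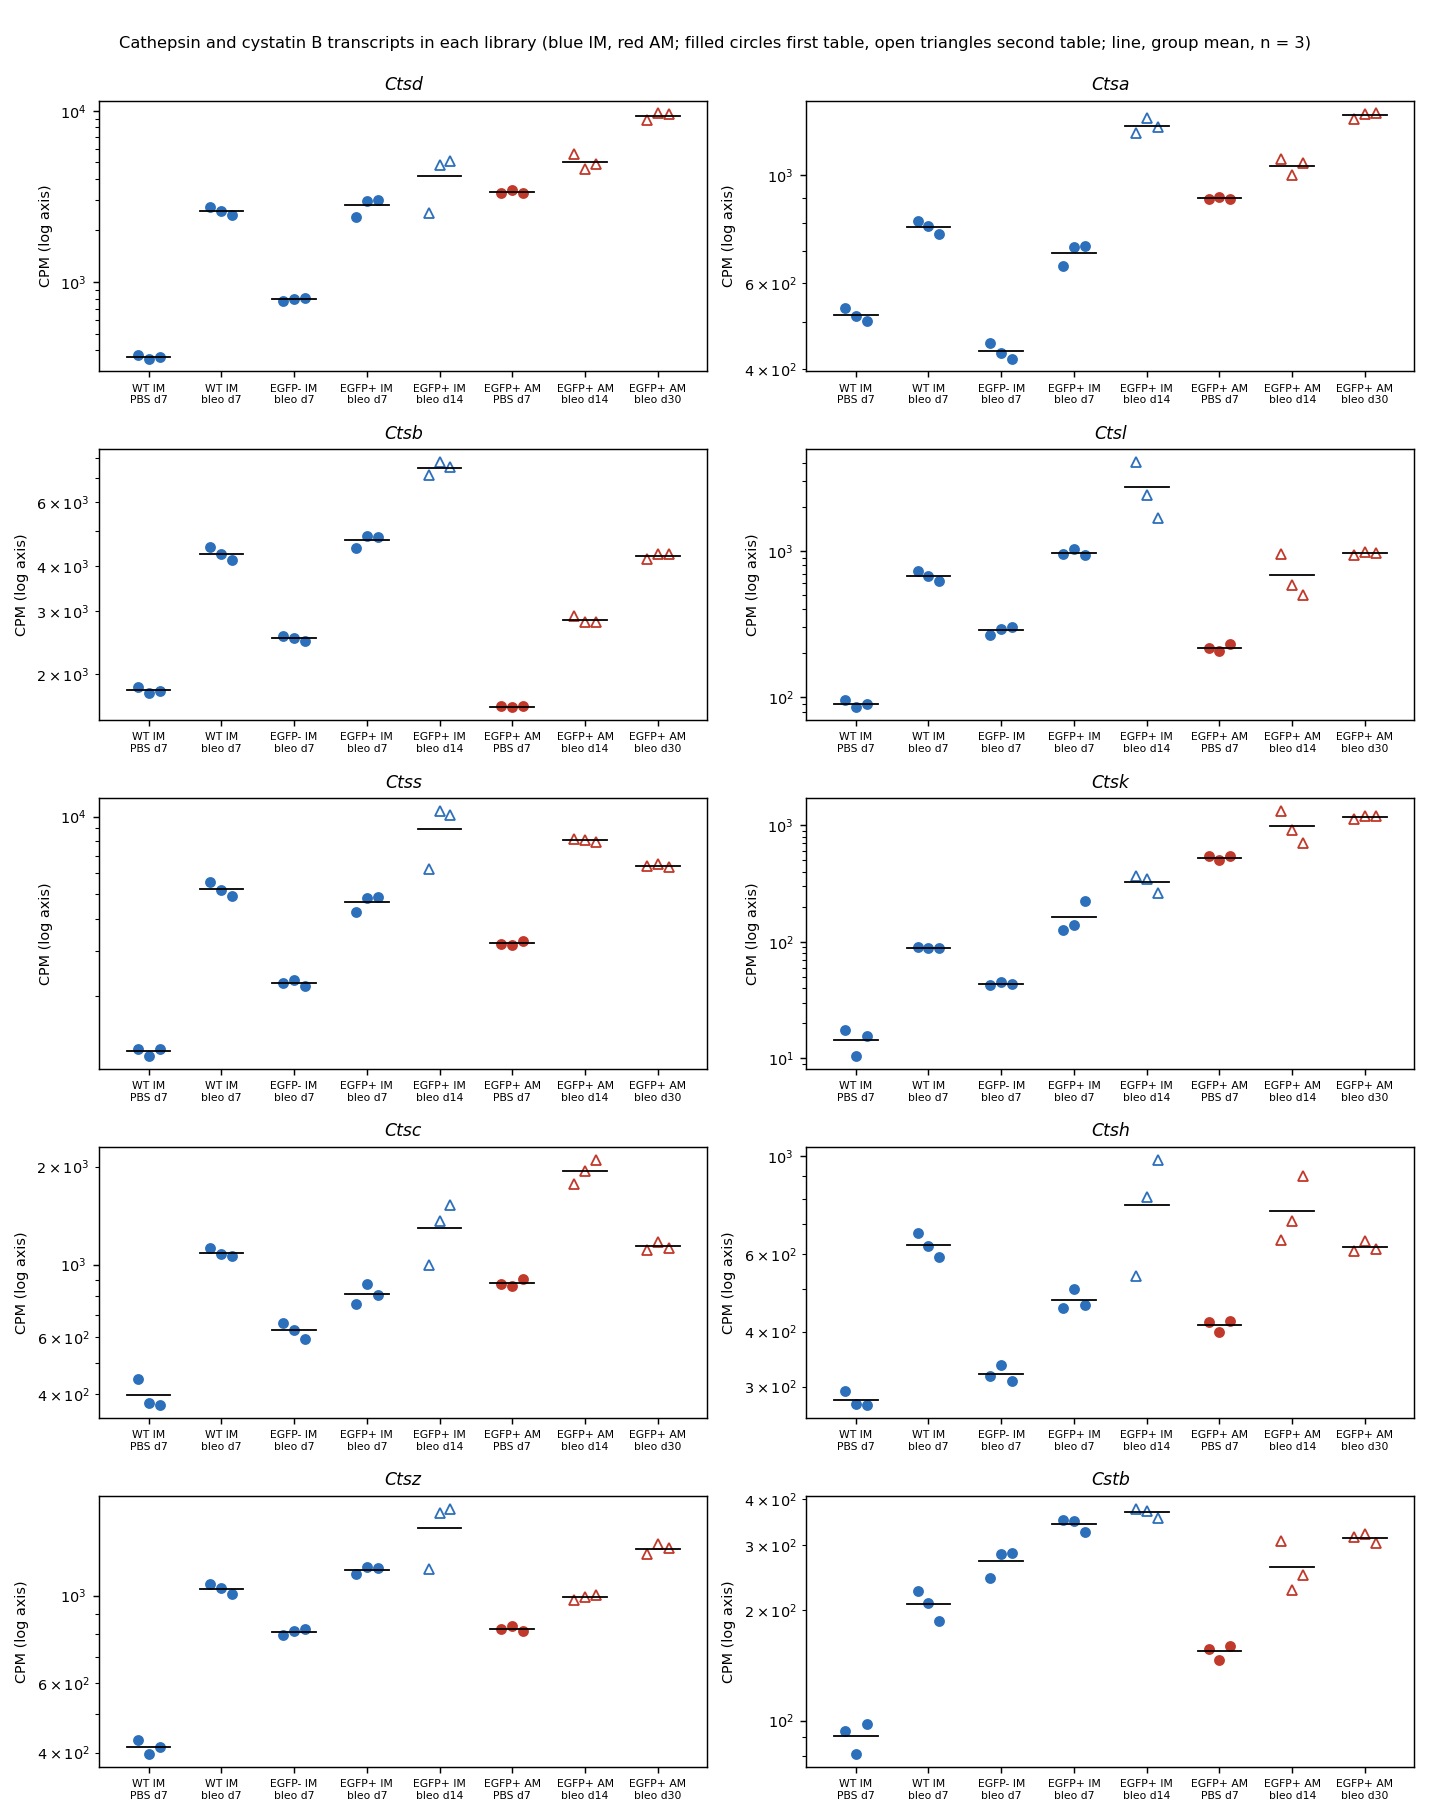
Level of each gene in every library, in CPM on a log axis, by group; blue marks IMs, red AMs, filled circles the first table, open triangles the second, and lines the group means (n = 3). Ctsd rises from 357 to 376 CPM in wild-type IMs after PBS to 8812 to 9730 CPM in EGFP+ AMs at day 30, and the 3 EGFP+ IM libraries at day 14 lie far apart for Ctsl, Ctsd, Ctss and Ctsh.

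In wild-type IMs at day 7, bleomycin was compared with PBS to see how the injured lung's IM gate differs from the uninjured one. All 10 genes were called higher after bleomycin (edgeR quasi-likelihood test, Benjamini-Hochberg adjusted p under 0.05), where 35.6% of the 15496 genes tested were called higher. All but Ctsa rose at least 2-fold, which 10.6% of the genes tested did. The median log2 fold change of the 10 was 1.35, beside 0.00 for all genes tested.

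Ctsd, the main aspartic protease of the lysosome, was at 376, 357 and 364 CPM in the 3 PBS libraries and at 2733, 2608 and 2462 CPM in the 3 bleomycin libraries. The groups did not overlap, and the log2 fold change was 2.79 ± 0.05 (SE; adjusted p = 2.2e-21). Ctsa, which also shields lysosomal neuraminidase and beta-galactosidase, changed least, from 517 ± 16.1 to 784 ± 23.5 CPM, a log2 fold change of 0.56 ± 0.05 (adjusted p = 6.9e-10).

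Among the endopeptidases Ctsl, a broad lysosomal and secreted protease, was at 96.0, 85.3 and 89.8 CPM after PBS and at 730, 669 and 623 CPM after bleomycin, with no overlap. Its log2 fold change of 2.85 ± 0.07 (adjusted p = 1.4e-18) was the largest of the 10. Ctsk, the collagen-cutting protease best known from osteoclasts, was at 17.4, 10.4 and 15.5 CPM after PBS and at 91.0, 87.9 and 88.7 CPM after bleomycin, a log2 fold change of 2.59 ± 0.13 (adjusted p = 1.3e-08). Ctss, which trims the invariant chain of MHC class II and stays active at neutral pH, rose from 1213 ± 45.8 to 5206 ± 334 CPM (log2 2.06 ± 0.05, adjusted p = 5.9e-19). Ctsb, an abundant protease with endopeptidase and peptidyl dipeptidase activity, rose from 1804 ± 37.3 to 4327 ± 179 CPM (log2 1.22 ± 0.05, adjusted p = 4.9e-16). Ctsl, Ctsd, Ctsk and Ctss thus lay above the other 6, whose folds ran from 1.47 to 2.66.

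The exopeptidases Ctsc, which activates granule serine proteases, Ctsh, an aminopeptidase, and Ctsz, a carboxypeptidase, rose 2.66-fold, 2.17-fold and 2.44-fold. Cstb was at 93.9, 81.0 and 98.1 CPM after PBS and at 224, 209 and 187 CPM after bleomycin (log2 1.14 ± 0.08, adjusted p = 1.2e-08), a fold of 2.20 beside 4.16 to 7.23 for the 4 most changed cathepsins.

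Markers of other cells moved with this comparison. The 11 neutrophil markers, all lower after bleomycin where 34.5% of genes tested were called lower, summed to 7719 to 9197 CPM after PBS and 1659 to 1723 CPM after bleomycin. The 10 lung epithelial markers, of which 8 were lower and 2 higher, summed to 4477 to 6649 and 137 to 178 CPM. All 8 B cell markers were lower, with sums of 1493 to 1715 and 391 to 460 CPM, and none of the markers on these lists was at 0 in either group. All 6 macrophage markers were higher, Mertk at 17.5 CPM after PBS and 150 CPM after bleomycin and Fcgr1 at 36.8 and 213 CPM. The part of these cells in the cathepsin result was not tested, and in sorted bulk samples fewer cells of a type and less RNA per cell cannot be told apart.

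**Figure D2:**
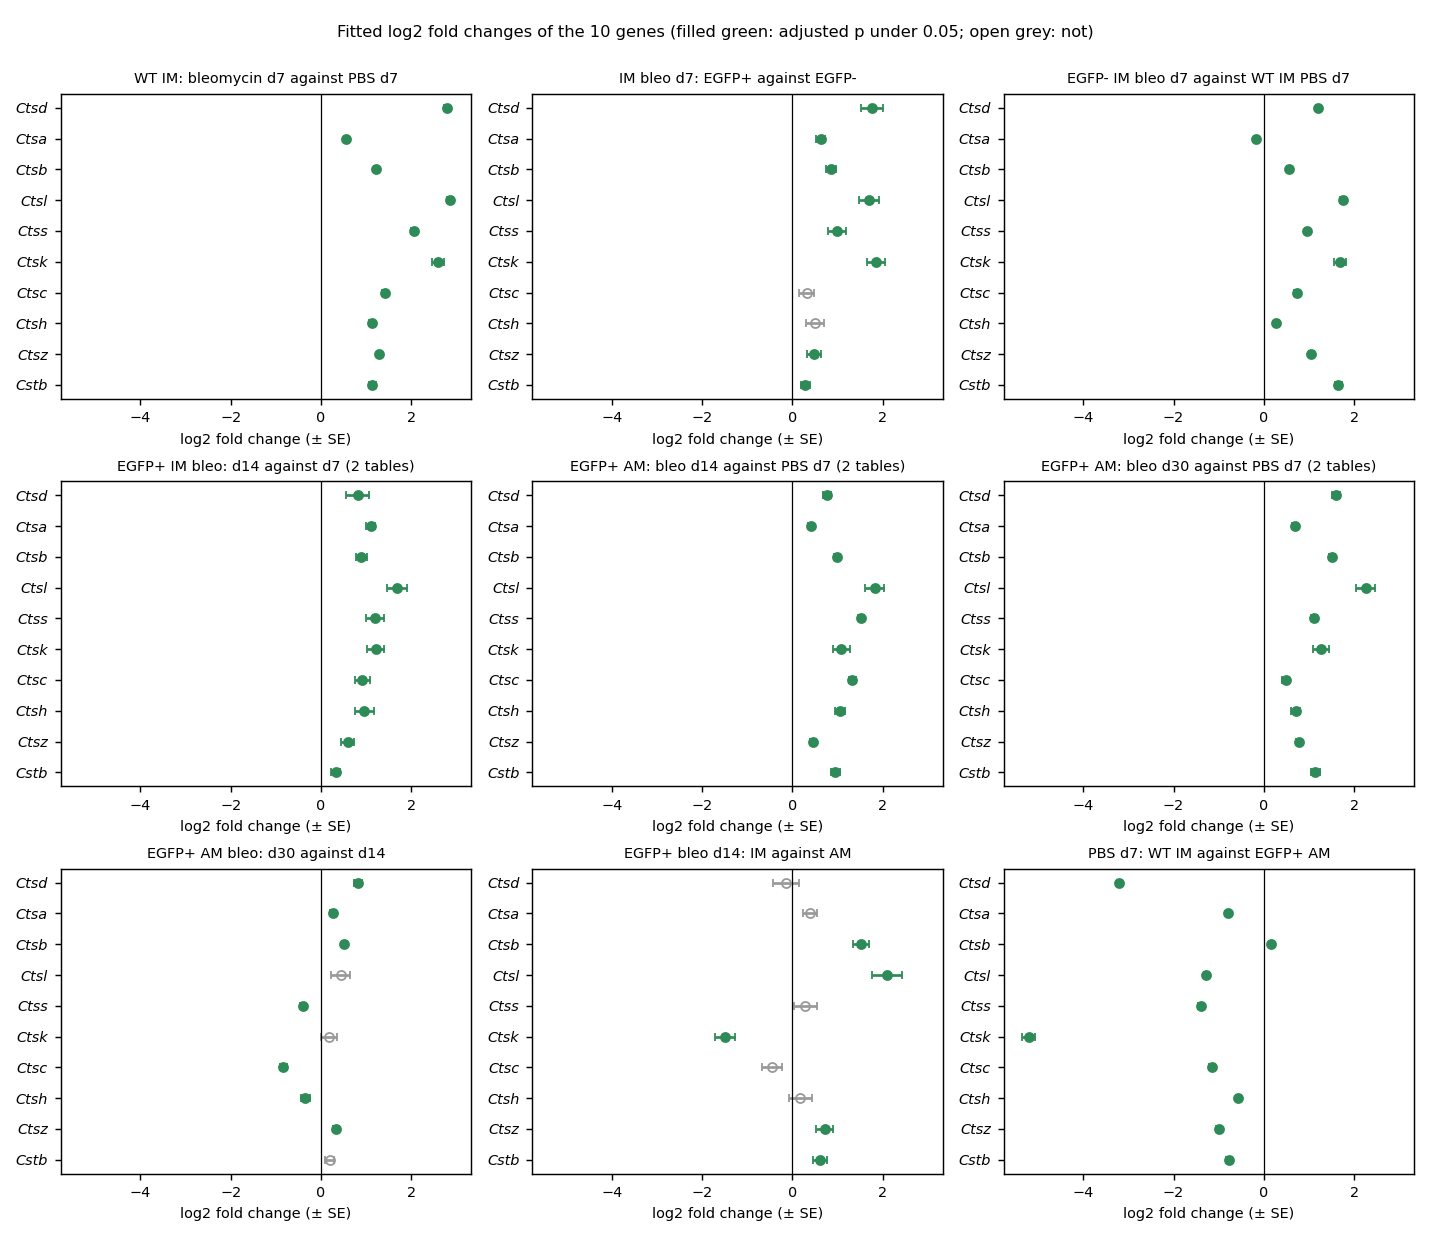
Fitted log2 fold change of each gene in the 9 comparisons, first group against second, with bars of 1 SE; filled green points passed the adjusted p and open grey points did not. All 10 points lie above 0 for bleomycin against PBS in wild-type IMs and in EGFP+ AMs at day 14 and day 30, while day 30 against day 14 in AMs splits them.

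Within bleomycin-treated reporter mice at day 7, EGFP+ IMs were compared with EGFP- IMs from the same gate. Of the 10 genes, 8 were called higher in EGFP+ cells and none lower, where 17.2% of 14967 genes tested were called higher and 17.6% lower. The median log2 fold change was 0.74, beside -0.02 for all genes tested. Ctsk was at 42.8, 44.9 and 43.5 CPM in EGFP- libraries and at 127, 141 and 224 CPM in EGFP+ libraries (log2 1.85 ± 0.19, adjusted p = 9.7e-05). Replicate 3 of the EGFP+ group was the highest, and every EGFP+ library was above every EGFP- library. Ctsd was at 780, 799 and 811 CPM and at 2385, 2989 and 3029 CPM (log2 1.76 ± 0.25, adjusted p = 5.9e-04). Ctsl was at 268, 295 and 303 CPM and at 946, 1029 and 936 CPM (log2 1.70 ± 0.22, adjusted p = 3.3e-04).

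Ctss (log2 0.997 ± 0.20), Ctsb (0.85 ± 0.12) and Ctsa (0.62 ± 0.10) were called with adjusted p of 0.00287 or lower in this test. Ctsz (0.47 ± 0.15, adjusted p = 0.0332) and Cstb (0.28 ± 0.10, adjusted p = 0.0468) were close to the threshold, and both lost the call when any 1 library was left out. Ctsc was at 628 ± 35.1 CPM in EGFP- and 811 ± 59.5 CPM in EGFP+ libraries (adjusted p = 0.153) and Ctsh at 321 ± 13.8 and 471 ± 24.9 CPM (adjusted p = 0.0815). The groups did not overlap for either gene, as for 58.6% of genes tested, and both passed when only the 2 groups were fitted (edgeR adjusted p = 2.2e-04 and 2.1e-06). Neutrophil markers summed to 4863 to 6402 CPM in EGFP- and 2123 to 2907 CPM in EGFP+ libraries, all 11 called lower in EGFP+. Macrophage markers summed to 4266 to 4356 and 9861 to 13813 CPM, with 4 of 6 called higher, and the part of either in the result was not tested.

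EGFP- IMs after bleomycin were also set against wild-type IMs after PBS, which are the control libraries of the wild-type comparison too. In the EGFP- cells 9 of the 10 genes were higher, where 29.0% of genes tested were called higher, and Ctsa was lower (log2 -0.17 ± 0.05, adjusted p = 0.0068), where 29.5% were called lower. Ctsl rose 3.37-fold, Ctsk 3.21-fold, Cstb 3.14-fold and Ctsd 2.30-fold. Cstb was at 244, 283 and 285 CPM in EGFP- libraries, so that here the inhibitor was among the most changed of the 10 and Ctsh, at log2 0.27 ± 0.06, the least changed of those that rose. Ctsa and Ctsh lost their calls in one fit of all libraries (edgeR adjusted p = 0.0548 and 0.173). Genotype, treatment and EGFP gate all differ between these groups and cannot be told apart. Neutrophil markers summed to 4863 to 6402 CPM in the EGFP- libraries, and 7 of 11 were called lower and 1 higher than after PBS. Epithelial markers summed to 4477 to 6649 CPM after PBS and 124 to 135 CPM in EGFP- libraries, and B cell markers to 1493 to 1715 and 308 to 346 CPM. Macrophage markers summed to 9203 to 9414 CPM after PBS and 4266 to 4356 CPM in EGFP- libraries, a lower sum although 4 of the 6 were called higher and 2 lower. The part of these cells was not tested.

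EGFP+ IMs at day 14 were compared with EGFP+ IMs at day 7. The groups come from different tables, so that table and day cannot be told apart. All 10 genes were called higher at day 14, where 25.3% of genes tested were, and the median log2 fold change was 0.94, beside 0.00 for all genes tested. Ctsl was at 946, 1029 and 936 CPM at day 7 and at 4061, 2424 and 1689 CPM at day 14 (log2 1.69 ± 0.22, adjusted p = 1.2e-04). The day 14 libraries were all higher but spread 2.40-fold, with replicate 1 on top, and the change of gene model applies. Without that replicate the log2 fold change was 1.34. Ctss was at 4235, 4798 and 4860 CPM at day 7 and at 6245, 10541 and 10127 CPM at day 14 (log2 1.19 ± 0.20, adjusted p = 4.5e-04), with replicate 1 the lowest at day 14, and the log2 fold change was 1.42 without it.

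Ctsa (log2 1.10 ± 0.10) and Ctsb (0.90 ± 0.12) rose with little spread, Ctsb to 7153, 7787 and 7506 CPM, and were 1.15 and 0.96 without replicate 1. Ctsd was at 2534, 4814 and 5061 CPM at day 14, and replicate 1 lay within the day 7 range, so the groups overlapped. Its log2 fold change of 0.81 ± 0.25 (adjusted p = 0.019) was 1.08 without replicate 1 and lost the call without day 14 replicate 2 or 3, without day 7 replicate 1, with no filter on low counts and with only the 2 groups fitted (edgeR adjusted p = 0.0511 to 0.109). Ctsk, Ctsh, Ctsc and Cstb rose 2.31-fold, 1.95-fold, 1.88-fold and 1.26-fold, Ctsz rose by 0.59 on the log2 scale, and Cstb lost its call without day 14 replicate 2 or day 7 EGFP+ replicate 3 (edgeR adjusted p = 0.0611 and 0.0735). Ctsh was at 534, 807 and 982 CPM at day 14, replicate 1 being the lowest, and its log2 fold change was 1.19 without that library. Without it Ctsk was at 1.16, Ctsc at 1.09, Ctsz at 0.76 and Cstb at 0.35 on the log2 scale, and all 10 genes were still called. Neutrophil markers summed to 2123 to 2907 CPM at day 7 and 138 to 206 CPM at day 14, all 11 called lower. Macrophage markers summed to 9861 to 13813 CPM at day 7 and, at day 14, to 14756 CPM in replicate 1, 35749 CPM in replicate 2 and 48543 CPM in replicate 3. The part of these in the result was not tested.

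EGFP+ AMs after bleomycin, at day 14 and at day 30, were each compared with EGFP+ AMs at day 7 after PBS. Both comparisons use the same 3 PBS libraries, and both cross the tables, so that table, day and treatment cannot be told apart. All 10 genes were called higher at day 14, where 27.3% of genes tested were, and all 10 at day 30, where 24.8% were. Ctsl was at 216, 207 and 233 CPM after PBS, at 957, 583 and 498 CPM at day 14 and at 936, 982 and 975 CPM at day 30. It was the most changed gene at both times, by log2 1.82 ± 0.21 (adjusted p = 1.0e-04) and 2.26 ± 0.22 (adjusted p = 3.2e-05), across its change of model.

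Ctsd was at 3302, 3450 and 3321 CPM after PBS, at 5576, 4595 and 4908 CPM at day 14 and at 8812, 9730 and 9514 CPM at day 30. No 2 of these groups overlapped, and the log2 fold changes against PBS were 0.77 ± 0.08 and 1.59 ± 0.08. Ctsb rose 1.98-fold and 2.84-fold, Ctsk 2.12-fold and 2.40-fold, Ctsz 1.37-fold and 1.72-fold, and Cstb 1.93-fold and 2.20-fold. Ctsa rose by 0.41 and 0.68 on the log2 scale. Ctss rose 2.87-fold and 2.17-fold, Ctsc 2.51-fold and 1.40-fold and Ctsh 2.07-fold and 1.63-fold. Fibroblast markers, which summed to 11.3 to 14.3 CPM after PBS and 6.02 to 11.4 CPM at day 14, summed to 101 to 108 CPM at day 30. Neutrophil markers summed to 136 to 212, 93.3 to 116 and 539 to 624 CPM in the same order. Lung epithelial markers summed to 391 to 396, 85.5 to 87.3 and 146 to 198 CPM. B cell markers summed to 796 to 955, 13.2 to 19.7 and 381 to 479 CPM, and macrophage markers to 25222 to 26300, 35134 to 45877 and 55418 to 60768 CPM in the same order, and their part was not tested.

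Day 30 and day 14 AMs, both in the second table, could be compared directly, and here the genes split. Ctsd (log2 0.82 ± 0.08, adjusted p = 8.9e-07), Ctsb (0.52 ± 0.07, adjusted p = 1.1e-05), Ctsz (0.33 ± 0.07) and Ctsa (0.27 ± 0.07) were higher at day 30, 4 of 10 where 19.6% of genes tested were. Ctsc, Ctss and Ctsh were lower, 3 of 10 where 18.7% were. Ctsc was at 1767, 1941 and 2103 CPM at day 14 and at 1113, 1171 and 1128 CPM at day 30, with no overlap, and fell by 0.84 ± 0.08 on the log2 scale (adjusted p = 4.0e-07). Ctss was at 8190, 8068 and 7986 CPM and at 6415, 6509 and 6341 CPM, and fell by 0.40 ± 0.06 (adjusted p = 1.3e-04). Neutrophil markers summed to 93.3 to 116 CPM at day 14, with Camp and Ly6g at 0, and to 539 to 624 CPM at day 30, with 9 of 11 called higher. All 8 B cell markers and 7 of 8 fibroblast markers were also called higher at day 30, and the part of these cells was not tested.

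Ctsh fell by 0.35 ± 0.10 (adjusted p = 0.0143), and lost the call without day 14 replicate 3, without day 30 replicate 1 or 3, and in one fit of all libraries. Ctsl, Ctsk and Cstb were not called (log2 0.44 ± 0.21, 0.18 ± 0.18 and 0.19 ± 0.10). For these 3 genes day 14 replicate 1 was high, with Ctsk at 1339 CPM beside 922 and 706 CPM, and without that library all 3 were called higher at day 30 (log2 0.76, 0.46 and 0.32, edgeR adjusted p = 2.5e-07, 2.2e-04 and 0.00288). Without day 14 replicate 3 the value for Ctsk was -0.00.

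At day 14 the EGFP+ IMs were compared with the EGFP+ AMs. Ctsl (log2 2.09 ± 0.33, adjusted p = 0.0022), Ctsb (1.52 ± 0.18, adjusted p = 2.1e-04), Ctsz (0.71 ± 0.20, adjusted p = 0.026) and Cstb (0.61 ± 0.15, adjusted p = 0.017) were higher in IMs, 4 of 10 where 10.8% of genes tested were. Ctsk was lower, 1 of 10 where 10.2% were: its libraries were at 365, 349 and 260 CPM in IMs and at 1339, 922 and 706 CPM in AMs, 2.82-fold lower in IMs (adjusted p = 0.0011). Ctsb did not overlap either, with IM libraries at 7153 to 7787 CPM and AM libraries at 2793 to 2903 CPM. Ctsz lost its call without IM replicate 2 or 3 or any 1 AM replicate (edgeR adjusted p = 0.0557 to 0.107), and Cstb without IM replicate 2 or AM replicate 2 or 3 (0.0686 to 0.0817). Ctsd, Ctsa, Ctss, Ctsc and Ctsh were not called, though Ctsa passed in DESeq2 (adjusted p = 0.0217). Ctsc was at 997, 1358 and 1521 CPM in IMs and at 1767, 1941 and 2103 CPM in AMs, with no overlap (log2 -0.45 ± 0.21, adjusted p = 0.165). It was called lower in IMs in 2 of 12 other settings, with the replicate block (edgeR adjusted p = 0.0461) and in one fit of all libraries (0.00307). Without IM replicate 1, Ctss (log2 0.52, adjusted p = 0.0194) and Ctsa (0.47, adjusted p = 0.0244) were called higher in IMs in the same edgeR test, and the value for Ctsd was 0.14 in place of -0.14. Ctsl, whose IM libraries were at 4061, 2424 and 1689 CPM, was then at log2 1.76, Ctsz at 0.90, Cstb at 0.64, Ctsk at -1.53, Ctsc at -0.26 and Ctsh at 0.42. Ctsb was at 1.602, and the calls of Ctsl, Ctsb, Ctsz, Cstb and Ctsk held. Neutrophil markers summed to 138 to 206 CPM in IMs and to 93.3 to 116 CPM in AMs, with Camp and Ly6g at 0 in AMs. B cell markers summed to 29.7 to 85.5 and 13.2 to 19.7 CPM, and macrophage markers to 14756 to 48543 and 35134 to 45877 CPM, where the groups overlap. The part of these cells was not tested.

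Among groups given PBS, wild-type IMs had 9 of the 10 genes lower than EGFP+ AMs after PBS, where 39.7% of genes tested were called lower. Ctsk, at 542, 507 and 542 CPM in AMs and 10.4 to 17.4 CPM in IMs, was 37.0-fold lower in IMs, and Ctsd was 9.21-fold lower. Ctsb was the exception, at 1629, 1616 and 1629 CPM in AMs and 1846, 1773 and 1795 CPM in IMs (log2 0.15 ± 0.05, adjusted p = 0.0063), where 39.2% of genes were called higher. It lost the call with no filter on low counts and without AM replicate 1. Genotype and EGFP gate also differ between these groups, and the IM libraries carried the neutrophil, epithelial and B cell marker sums given above. The AM libraries had neutrophil sums of 136 to 212 CPM, epithelial sums of 391 to 396 CPM and B cell sums of 796 to 955 CPM. The part of these cells was not tested.

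Summed, the 9 cathepsins took 0.509% of all counts in wild-type IMs after PBS, 1.64% in wild-type IMs after bleomycin, 0.808% in EGFP- IMs, 1.64% in EGFP+ IMs at day 7 and 2.85% at day 14. In EGFP+ AMs the sum was 1.19% after PBS, 2.23% at day 14 and 2.66% at day 30. In all 9 comparisons the libraries of the 2 groups did not overlap, and the exact 2-sided permutation p was 0.1, the smallest that 3 against 3 can give, so that no such single value could pass 0.05. The make-up of the sum differed: Ctsd was 7.18% of it in wild-type IMs after PBS, 15.8% after bleomycin and 35.2% in EGFP+ AMs at day 30. Ctsb was 35.4% of it in wild-type IMs after PBS and 12.7% in EGFP+ AMs at day 14. Ctsk was at most 1.14% of the sum in any IM group and 4.43% to 4.44% in each of the 3 AM groups.

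**Figure D3:**
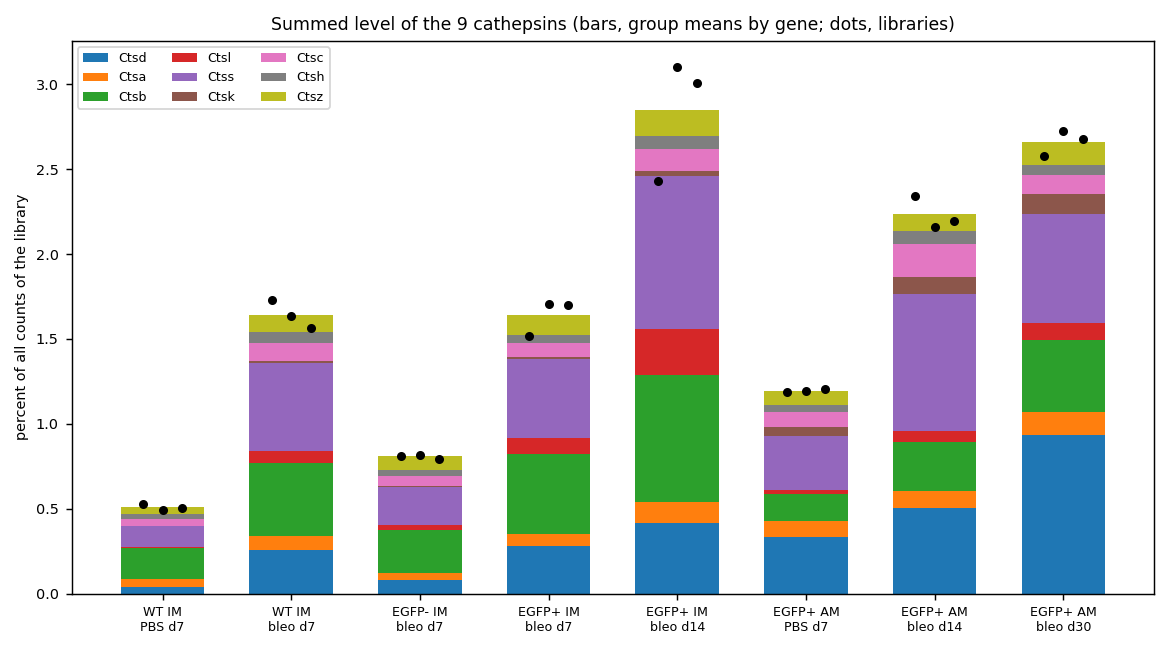
Summed level of the 9 cathepsins in percent of all counts of the library; stacked bars are group means by gene and dots are the 3 libraries of a group. The sum runs from 0.509% in wild-type IMs after PBS to 2.85% in EGFP+ IMs at day 14, whose 3 libraries span 2.43% to 3.10%.

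The ratio of each cathepsin count to the Cstb count within a library does not depend on the scaling of the library. Cystatin B inhibits cysteine cathepsins, so the ratios of Ctsd and Ctsa serve only as a scale. In wild-type IMs the ratio of Ctsl to Cstb was 0.997 ± 0.072 after PBS and 3.26 ± 0.0698 after bleomycin, and that of Ctss 13.4 ± 0.865 and 25.2 ± 0.902. The ratio of Ctsb, 18.3 to 21.9 after PBS and 20.1 to 22.2 after bleomycin, overlapped between the groups, as did those of Ctsh and Ctsz. Of the 9 ratios 5 were higher after bleomycin without overlap and 1, that of Ctsa, lower. The share of all genes whose ratio to Cstb does not overlap was not computed. Counts of ratios, here and below, therefore only describe these genes.

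EGFP- IMs went the other way: 7 of 9 ratios were lower than in wild-type IMs after PBS and none was higher without overlap. Cstb itself rose by log2 1.65 in this comparison, so that a gene which rose less has a lower ratio. The count therefore largely restates the change of Cstb. There the ratio of Ctsl was 1.07 ± 0.0294, close to the PBS value, and that of Ctsb was 9.35 ± 0.990. EGFP+ IMs at day 7 had 5 of 9 ratios above those of EGFP- IMs, with Ctsl at 2.84 ± 0.131. In EGFP+ AMs the ratio of Ctsc was 5.70 ± 0.152 after PBS, 7.59 ± 1.61 at day 14 and 3.63 ± 0.0921 at day 30, and that of Ctsd 21.8 ± 1.53, 19.4 ± 1.14 and 29.9 ± 1.73. For Ctsc the PBS libraries (5.57 to 5.87) overlapped those of day 14 (5.73 to 8.58). The PBS group is in the other deposited table than days 14 and 30. Each ratio has an exact permutation p of 0.1 at best, and after adjustment over its 9 comparisons no ratio was below 0.1.

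**Figure D4:**
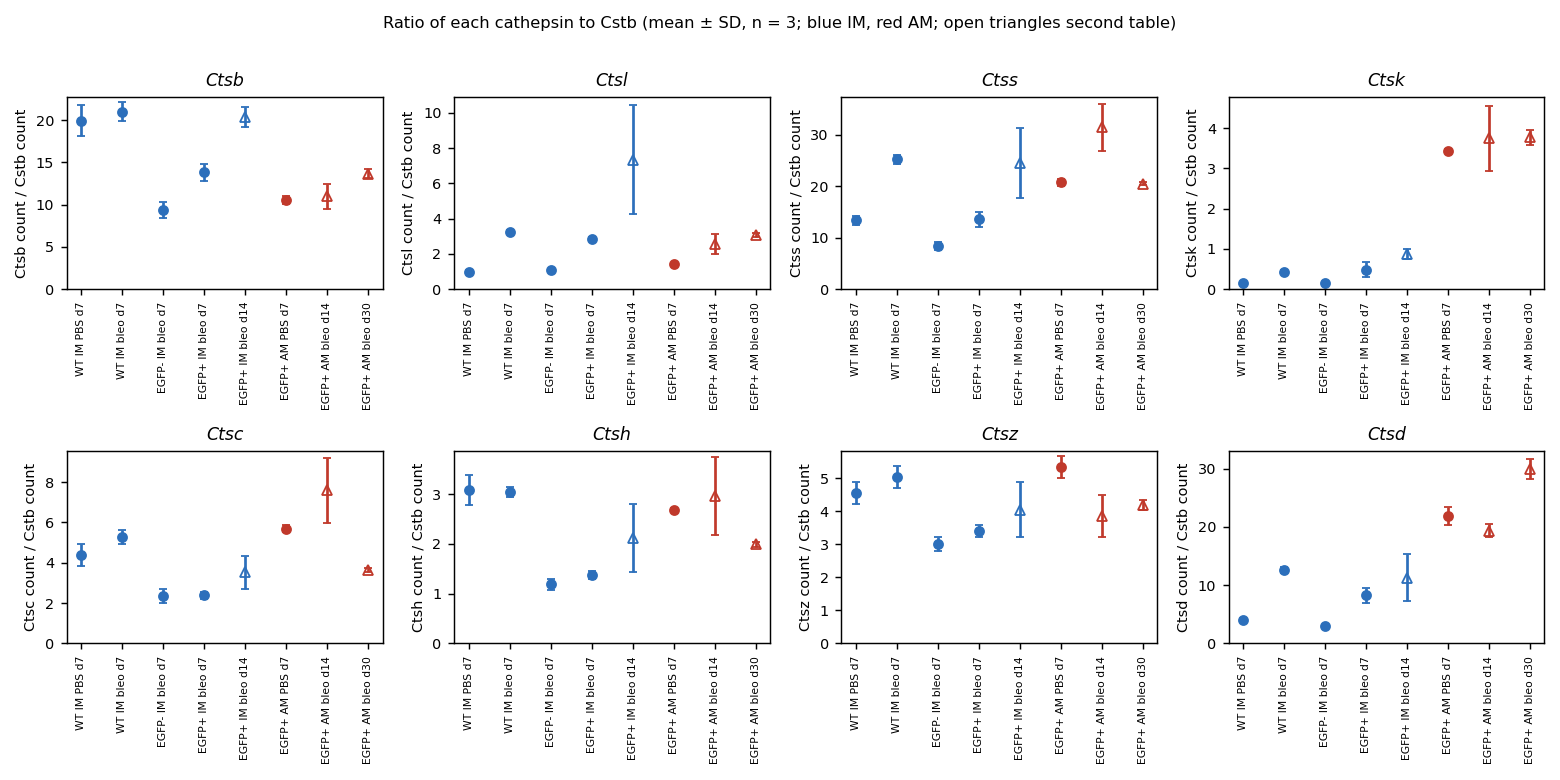
Ratio of the count of each cathepsin to that of Cstb, mean ± SD over 3 libraries per group, for 7 cysteine cathepsins and Ctsd; blue marks IMs, red AMs, open triangles the second table. The ratio of Ctsk stays below 1 in every IM group and is 3.44 to 3.77 in the AM groups, and that of Ctsl has its widest bar at day 14 in IMs, where the libraries run from 4.76 to 10.8.

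Genes that deliver or activate cathepsins were followed as a list of 8. All 8 were called higher after bleomycin in wild-type IMs, where 35.6% of genes tested were, with a median log2 fold change of 1.02 beside 0.00 for all genes tested. Lgmn, which encodes the protease legumain that processes several cathepsins, rose 2.93-fold. Psap, the saposin precursor that also carries procathepsin D, rose from 4281 ± 135 to 8524 ± 63.5 CPM. Igf2r, the large mannose 6-phosphate receptor, rose 2.14-fold, and Gnptab, which starts the mannose 6-phosphate tag, 2.43-fold. In EGFP+ against EGFP- IMs 4 of 8 were higher and none lower, where 17.2% and 17.6% of genes tested were, and the median was 0.42 beside -0.02. The change was led by the sorting receptor gene Sort1, which rose 3.41-fold.

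In AMs at day 14 against PBS 4 of the 8 were higher and 1 lower, where 27.3% of genes tested were higher and 27.6% lower, with a median of 0.38 beside -0.01. At day 30 against PBS 4 were higher and 2 lower, where 24.8% were higher and 23.1% lower, with a median of 0.14 beside 0.02. The level of Psap was 4913 ± 94.1 CPM in the PBS group, 9790 ± 429 CPM in the day 14 group and 14044 ± 343 CPM in the day 30 group, and Lgmn rose 3.48-fold and 3.95-fold. The tagging enzyme genes Gnptab, Gnptg and Nagpa did not rise in either AM comparison: none was called higher, and Gnptab was lower at day 30 (log2 -0.19 ± 0.07, adjusted p = 0.0347). In IMs at day 14 against day 7, where 25.3% of genes tested were higher and 26.9% lower, 5 were higher, Igf2r was lower (log2 -0.63 ± 0.13), and Sort1 and Gnptab were not called.

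Other cathepsins were scarce. Of 14 listed, Ctso had the highest level, 20.6 to 60.6 CPM by group, and 7 genes of the rodent placental cluster, Ctsm, Ctsq, Ctsr, Cts3, Cts6, Cts7 and Cts8, had no count in any library. Ctsf, at 2.78 CPM in the fit of EGFP+ IMs at day 7, rose 8.29-fold at day 14 (adjusted p = 1.8e-06), across the tables. Of the other cystatins, Cst3, which encodes the secreted cystatin C, was the most abundant. In wild-type IMs it was at 1241 ± 67.0 CPM with PBS and 1173 ± 29.5 CPM with bleomycin (log2 -0.13 ± 0.05, adjusted p = 0.0267), and lowest, 473 ± 46.9 CPM, in AMs after PBS. Stfa2l1, a stefin of the same type as Cstb, fell by 1.27 ± 0.24 on the log2 scale in EGFP+ against EGFP- IMs (adjusted p = 0.0031), and all 11 neutrophil markers were lower there too, a link that was not tested.

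Across all 24 libraries the 45 pairs of the 10 genes had correlations of log2 CPM from 0.28 to 0.96, with a median of 0.784. These points share library, depth and the large differences between groups, and are given as a description. Within the 15 libraries of the first table the median was 0.739, and within the 9 of the second it was 0.059, with 22 of 45 pairs below 0. Those 9 libraries are of 3 groups, so their correlations also carry differences between groups. For Ctsb and Ctsk (r = -0.79), the means were 7482 and 325 CPM in day 14 IMs and 2832 and 989 CPM in day 14 AMs. Inside the day 14 groups, single libraries also lay away from their group means. In EGFP+ IMs at day 14, replicate 1 was above its group mean for Ctsl (log2 0.67) and below it for Ctsd (-0.64), Ctsh (-0.49), Ctss (-0.48) and Ctsc (-0.35). In EGFP+ AMs at day 14 replicate 1 was above its group mean for Ctsl (0.55) and Ctsk (0.49) and below it for Ctsh (-0.21). Replicate 3 was the lowest of its group for Ctsl and Ctsk and the highest for Ctsh and Ctsc in both gates. At day 30 the largest deviation from a group mean was that of Ctsd in replicate 1 (-0.08).

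**Figure D5:**
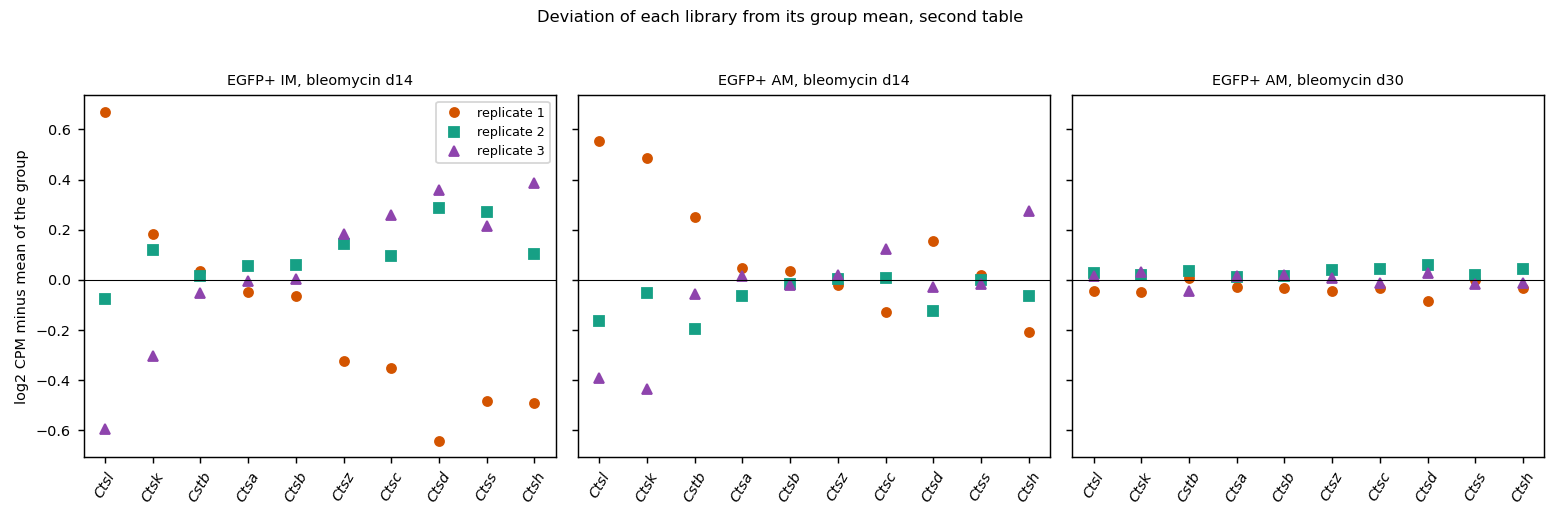
Log2 CPM of each library minus the mean of its group for the 10 genes, in the 3 groups of the second table; symbols and colours mark replicates 1, 2 and 3 of a group. The day 14 libraries spread up to 0.67 for Ctsl in opposite order to Ctsh, and the day 30 libraries stay near 0.

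Of 6906 genes with a mean of at least 10 CPM and the same position in both tables, those whose log2 CPM followed each gene most closely over the 24 libraries were as follows. Ctsd was nearest to Glmp (r = 0.983), which encodes a lysosomal membrane protein, then Crat and Coa3. Ctsb was nearest to Trem2 (r = 0.945), a lipid-sensing receptor of macrophages, then the ATP receptor genes P2rx7 and P2rx4. Ctsl was nearest to Psmd8 (0.981) and Tspan4, Ctsk to Ulk4 (0.983), Ctsa to Ergic3 (0.984), and Ctss to Cd84 (0.982), a receptor of the SLAM family. Ctsc was nearest to Cmc1 (0.962), Ctsh to Svbp (0.960) and then to Ctss (0.956). Ctsz and Cstb shared their nearest gene, Fabp5, a fatty acid carrier, at 0.969 and 0.939. Within the second table alone the value was 0.897 for Ctsd with Glmp, 0.947 for Ctsb with Trem2 and 0.910 for Ctsz with Fabp5. It was lower for Ctss with Cd84, at 0.601, Cstb with Fabp5, at 0.656, and Ctsa with Ergic3, at 0.737.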

How the data were processed

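Polyadenylated RNA of 24 libraries in 8 groups of 3 was analysed. The submitters' processing notes name the tools FastQC 0.11.5, HISAT2 2.1.0, SAMtools (no version), Trimmomatic 0.38 and featureCounts 1.6.3, and the build GRCm38, without their order. The annotation release and strand setting are not given in the sources used here. The authors deposited raw counts per gene in 2 tables, of 49585 genes and 15 libraries and of 55487 genes and 9 libraries. Another 3 columns that match no sample were not used. Rows were joined by gene ID, and the 49022 shared genes hold at least 99.486% of each library's counts. Of these, 90.8% have the same position in both tables, as do 7 of the 10 members.

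The test was that of edgeR 4.0.16 under R 4.3.3 (TMM, filterByExpr, robust quasi-likelihood F test, 2-sided, Benjamini-Hochberg adjusted p under 0.05 over all genes tested). Every adjusted p of a gene is from this test unless another is named. The 9 reporter IM libraries shared 1 fit, as did the 9 AM libraries; every other comparison was fitted on its own 6 libraries. The SE is the absolute log2 fold change over the square root of F. Single values per library were tested by exact permutation. The test was tested on simulated data. Lengths per kb are those of GENCODE M21. Named genes were the 10 members, from each other list up to 3 called genes with the smallest p per comparison and the most abundant one, the 3 genes most like each member, and Spp1, Siglecf and Itgam. Other names were chosen after their values were seen. The members and lists were chosen with earlier results of these data known. The alternatives tried were RLE size factors, DESeq2 1.42.0, no filter on low counts, one fit of all libraries, only the 2 groups compared, only genes with the same position, the replicate number as a block, and leaving out each library. Protein sequences were not used here.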

Additional observations from a re-analysis of the deposited data

How the results depend on the processing

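The counts of called members were recomputed in 113 settings, of which 108 stayed within 1.5 times the reported count. Of the other 5, restriction to genes at the same position in both tables gave 5 called members for EGFP+ against EGFP- IMs and 2 for IMs against AMs at day 14, where 7 members were tested because Ctsb, Ctsl and Cstb drop out. The other 3 left out a library of the day 14 comparison of IMs with AMs, whose count ran from 3 to 7 over the 6 such settings, at 3 without IM replicate 2, AM replicate 2 or AM replicate 3. Over all genes, EGFP+ against EGFP- IMs gave 2571 higher and 2635 lower, 4064 higher and 3623 lower with only the 2 groups fitted, and 1670 and 1610 without EGFP+ replicate 2. The day 14 comparison of gates gave 1454 higher and 1378 lower, 2937 and 2969 in one fit of all libraries, and 870 to 901 lower without IM replicate 2, AM replicate 2 or AM replicate 3. Of 1103 alternative values for single members, 37 lost the call, 13 gained it and 3 changed sign, all 3 when a library was left out and none from a called value. Over the leave-one-out settings Ctsk in AMs at day 30 against day 14 ran from -0.0019 to 0.46, Ctsd in day 14 IMs against AMs from -0.36 to 0.14, and Ctsh there from -0.0814 to 0.42 (log2). The summed level kept its direction in all 63 settings, and so did the ratios to Cstb that did not overlap in all 385. The 26 ratios whose groups overlap carry no direction here: over their 182 settings the sign changed in 18, all 18 with a library left out, and the choice to keep them apart was made after these values were seen.

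The labels do not say whether replicate numbers pair the samples, and the main test did not pair them. Of 27 same-number pairs, 2 had a correlation of deviations above 0.1 (range -0.03 to 0.18), both between day 14 IMs and AMs. In 3 of 9 comparisons every sample was closest to its own number, a hint from the data and not the design. With the replicate block 7 members were called for EGFP+ against EGFP- IMs, where Cstb lost its call (adjusted p = 0.0623), 6 for day 14 IMs against AMs, where Ctsc gained one (adjusted p = 0.0461), and 10, 10, 10, 10, 7, 10 and 10 in the others, as reported. With 3 libraries a group, 1 library can decide a call near the threshold, and no permutation test of a single value can go below 0.1.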

Other observations

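Partners of single cathepsins were looked at as a further group. Cathepsin A holds neuraminidase 1 and beta-galactosidase in a complex in the lysosome. Glb1, the beta-galactosidase gene, rose 2.49-fold after bleomycin in wild-type IMs (edgeR adjusted p = 6.8e-13) and 2.30-fold in EGFP+ against EGFP- IMs (adjusted p = 0.0029), beside 1.47-fold and 1.54-fold for Ctsa. Neu1 was not called in these comparisons (log2 -0.08 ± 0.05 and -0.06 ± 0.13). Cd74, the invariant chain that cathepsin S trims, was not called after bleomycin in wild-type IMs (log2 -0.08 ± 0.06) while Ctss rose 4.16-fold, and in AMs it was lower at day 30 than at day 14 (log2 -0.62 ± 0.11, adjusted p = 4.1e-04), as was Ctss. B cells also express Cd74. The 8 B cell markers were all lower after bleomycin in wild-type IMs, with sums of 1493 to 1715 CPM after PBS and 391 to 460 CPM after bleomycin. The part of B cells in the level of Cd74 was not tested.

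The 6 granule serine proteases that cathepsin C activates were at low levels, with sums in wild-type IMs of 56.8 to 65.4 CPM (PBS) and 52.6 to 56.7 CPM (bleomycin). There 4 were lower, 1 was higher and 1 was not called, while Ctsc rose 2.66-fold. Of all genes tested 34.5% were called lower and 35.6% higher. Gzma, the granzyme A gene of T and NK cells, was the one that rose (1.66-fold, edgeR adjusted p = 2.0e-07), while Gzmb, the other granzyme gene listed, was lower (log2 -0.59 ± 0.09). Of 8 T and NK cell markers 5 were higher, and Cd3e, Cd3d and Trac were not called. The part of these cells was not tested.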
